A study of Mus musculus with 4 samples.

Results

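The regulatory landscapes on both sides of the HoxD gene cluster on mouse chromosome 2 were searched for CTCF and RAD21 sites around 5 genes: Atf2, Atp5g3 and Lnpk on the centromeric side, and Mtx2 and Hnrnpa3 on the telomeric side. The sites were chosen by position alone. Peaks of the 5 lists mapped to mm10 were taken from chr2:73800000-74645000 and chr2:74770000-75700000, overlapping peaks were merged, and the fosmid region chr2:75122702-75160145 was left out because the transgene carries the same sequence. This gave 18 sites of the 33037 merged sites on all assembled chromosomes. They are named C1 to C8 on the centromeric side and T1 to T10 on the telomeric side, in their order along the chromosome.

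The study asked whether the CS38-40 region, a boundary inside the telomeric landscape, can form a boundary elsewhere in the genome. CTCF and RAD21 were profiled by ChIPmentation, in which immunoprecipitated chromatin is tagged by a transposase, in whole limbs of B6CBAF1 embryos at E12.5, in 2 biological replicates per antibody, with 4 limbs used according to the methods. The embryos were hemizygous for the transgene, TgN(38-40)/Wt, and homozygous for the deletion, del(CS38-40)-/-, here together called TgN(38-40). They carry on chromosome 10 a fosmid transgene holding CS38-40, from a single transgenic line, and lack both native copies of the region. The reference was 1 RAD21 list from wild-type E12.5 limbs, made by ChIP-seq in an earlier study of the same group, in which the native region is intact. The mm10 lists held 23829 and 26264 CTCF peaks in the replicates of TgN(38-40) limbs, and 4102 and 14787 RAD21 peaks in TgN(38-40) limbs against 20874 in wild-type limbs, so RAD21 replicate 1 was by far the shortest list. Read numbers are not in the lists, and genotype cannot be told apart from study and protocol wherever TgN(38-40) and wild-type limbs are set side by side.

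CTCF binds DNA through a long non-palindromic motif, so that each bound site points in a direction along the chromosome. Cohesin, of which RAD21 is a subunit, moves along chromatin while extruding a loop, and is held preferentially at CTCF sites whose motifs point towards the loop. In developing limbs the centromeric landscape, C-DOM, holds enhancers used by Hoxd genes in the digits and the telomeric landscape, T-DOM, holds enhancers used in the proximal limb.

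The motif sequences that the comparison of directions rests on are shown first. A motif model of 19 bases, learned from strong CTCF peaks of replicate 2 on autosomes other than chromosomes 2 and 10, had the consensus TGGCCACCAGGGGGCGCCA. Each sequence is written 5′ to 3′ along the motif strand, read from the mm10 (GRCm38) assembly, with the 19 motif bases in capitals between 10 flanking bases. C6 and T8 had the highest mean CTCF rank of their side, C7 and T1 were the CTCF sites next to the HoxD cluster, T2 and T3 flanked the deleted region, and T10 was the most telomeric site.
C6, chr2:74300445-74300463, plus strand: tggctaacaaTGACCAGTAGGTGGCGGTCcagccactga
C7, chr2:74305964-74305982, minus strand: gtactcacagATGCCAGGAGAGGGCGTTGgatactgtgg
T1, chr2:74964535-74964553, minus strand: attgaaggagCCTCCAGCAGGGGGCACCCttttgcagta
T2, chr2:75055361-75055379, minus strand: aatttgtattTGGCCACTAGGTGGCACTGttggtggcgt
T3, chr2:75208417-75208435, minus strand: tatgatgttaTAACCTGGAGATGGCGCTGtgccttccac
T8, chr2:75590409-75590427, minus strand: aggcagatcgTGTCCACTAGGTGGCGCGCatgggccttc
T10, chr2:75605882-75605900, plus strand: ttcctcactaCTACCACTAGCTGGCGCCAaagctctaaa

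Which sites hold CTCF was asked first. Of the 18 sites, 16 had a CTCF peak in at least 1 replicate, 6 on the centromeric side (7.10 per Mb) and 10 on the telomeric side (11.2 per Mb). Of these, 13 were called in both CTCF replicates, 5 centromeric and 8 telomeric, where 73.0% of the 28789 CTCF sites of the genome were. The density was ordinary on both sides. Autosomal tiles as long as the centromeric landscape held a median of 8 CTCF sites (quartiles 3 to 14), against 6 here, and tiles as long as the telomeric one also held a median of 8 (quartiles 3 to 15), against 10 here.

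**Figure D1:**
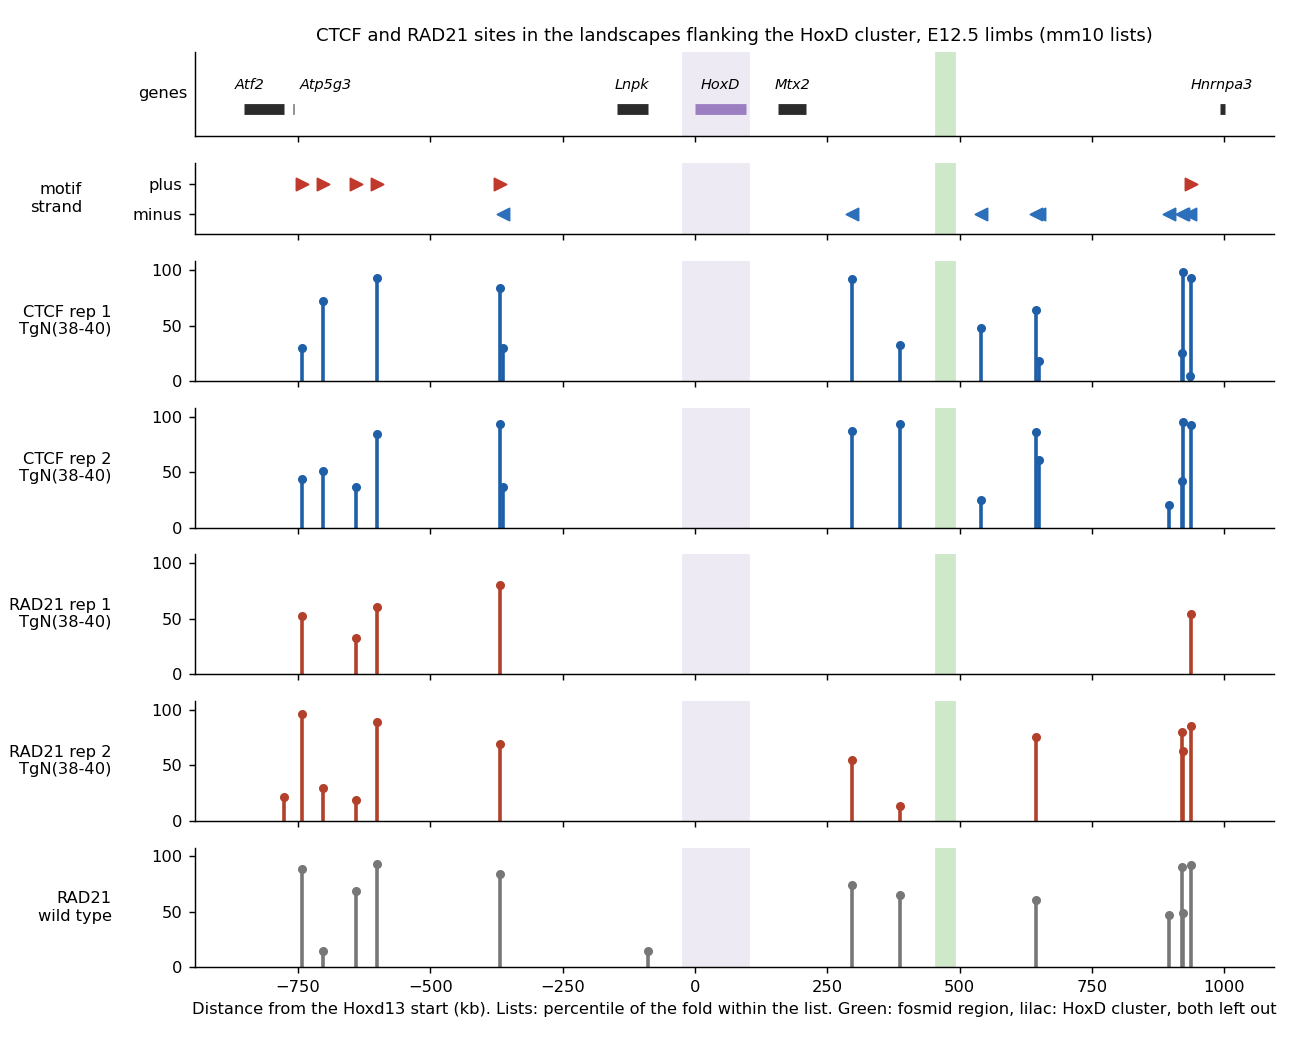
Position of the sites along the locus, as distance from the Hoxd13 start in kb, with genes at the top, motif strand below them, and then each list's peaks as the percentile of their fold enrichment within that list (4 lists of TgN(38-40) limbs above the wild-type list). Plus-strand motifs fill the left flank up to C6 and minus-strand motifs the right flank before T10, and RAD21 replicate 1 of TgN(38-40) limbs shows a single telomeric peak.

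The motifs of the 2 landscapes faced each other across the HoxD cluster. A motif was found within 50 bp of a CTCF summit in 15 of the 16 CTCF sites, where 78.8% of all CTCF sites had one. On the centromeric side 5 motifs were on the plus strand and 1 on the minus strand, and on the telomeric side 1 was on the plus strand and 8 on the minus strand. Across the genome 50.0% of motifs lay on the plus strand and 50.0% on the minus strand. Read relative to the cluster, 13 of the 15 motifs pointed towards HoxD and 2, those of C7 and T10, pointed away. Neighbouring motifs within a side were in tandem in 4 of 5 pairs on the centromeric side and 7 of 8 on the telomeric side, where 50.1% of neighbouring pairs in the genome were. The remaining pairs were the convergent pair C6 and C7 (24.9% of pairs in the genome) and the divergent pair T9 and T10 (24.9%).

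T2 was the CTCF site without a motif call, and it missed by 1 base. Its motif centre lay 51 bp from the summit that both CTCF replicates gave. In a window of 100 bp this motif scored 24.8, above the 22.8 of C6, the highest score among the 15 called motifs, and pointed towards HoxD. The wider window also raised the score needed for a call to 7.05 and left C5, at 6.84, without one. C5 and T5 owed their motif to the summit of replicate 2, since the summit of replicate 1 at these sites lay too far from it. C7 owed its motif to replicate 1 in the same way. Without CTCF replicate 1 only 1 motif, that of T10, pointed away from HoxD, and without CTCF replicate 2 the centromeric motifs pointing towards HoxD were 3 in place of 5.

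The strength of CTCF binding differed widely among the sites. MACS2 fold enrichment, the read pileup at the summit over its local expectation, is compared here only within a list, as a fold or as its percentile among the list's peaks. T8, near the far telomeric end, was the strongest, with folds of 11.6 in replicate 1 and 13.3 in replicate 2, at percentiles 98.6 and 95.2. T10 had folds of 9.75 and 12.4 (percentiles 92.8 and 92.1). T1, the CTCF site nearest to HoxD on the telomeric side, had folds of 9.61 and 11.4 (percentiles 92.0 and 87.3). All 3 stood at percentile 87.3 or above in both lists.

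On the centromeric side the strongest sites were C6 and C5. C6 lies in an exon of 4930441J16Rik, a long intergenic non-coding RNA gene on the minus strand, and had folds of 8.64 and 12.9 (percentiles 84.1 and 93.9). C5, between Atp5g3 and that gene, had folds of 9.83 and 11.0 (percentiles 93.3 and 84.6). C7, in an intron of 4930441J16Rik and the last centromeric CTCF site before the cluster, was far weaker, with folds of 5.60 and 6.71 (percentiles 29.3 and 36.5). C3 had folds of 7.73 and 7.71 (percentiles 72.1 and 51.0), and C2 had folds of 5.63 and 7.23 (percentiles 30.0 and 44.1). The side thus held a pair of strong sites among weaker neighbours.

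T8, T10 and T1 ranked high in both replicates, while the remaining telomeric sites varied more. T2 had a fold of 5.73 in replicate 1 (percentile 32.9) and 12.9 in replicate 2 (percentile 93.9), the widest gap between the replicates. T4, in an intron of 2600014E21Rik, had folds of 7.27 and 11.3 (percentiles 64.1 and 86.6). T5 had folds of 5.09 and 8.54 (percentiles 18.2 and 61.4). T3, in another intron of 2600014E21Rik, had folds of 6.39 and 5.96 (percentiles 47.5 and 24.7). Over the 13 sites called in both replicates the folds had a Spearman rho of 0.63, and over 14 sites with a replicate 2 peak and a motif the fold and the motif score had a rho of 0.51. These are descriptions across sites of the same libraries.

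**Figure D2:**
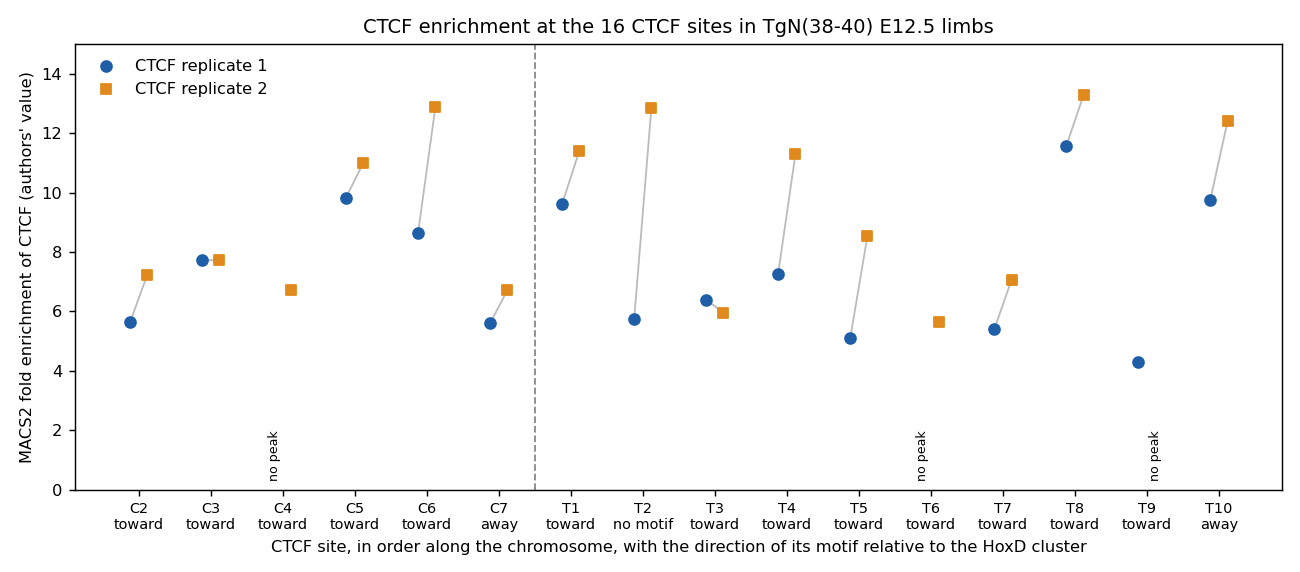
MACS2 fold enrichment of CTCF at the 16 CTCF sites in TgN(38-40) limbs, replicate 1 as circles and replicate 2 as squares joined by a line, with the direction of the motif relative to HoxD under each site and the dashed line at the cluster. T8 is highest in both replicates, and C4, T6 and T9 have a peak in 1 replicate only.

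At 3 sites only 1 CTCF replicate gave a peak. T6 had a fold of 5.64 in replicate 2 (percentile 20.6). The other two are named although the naming rule did not choose them, as T9, with 4.28 in replicate 1 (percentile 4.5), and C4, with 6.71 in replicate 2 (percentile 36.5). T7, also outside that rule, had folds of 5.40 and 7.05 (percentiles 24.8 and 41.9).

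RAD21 was then read at the CTCF sites. In TgN(38-40) limbs 11 of the 16 CTCF sites carried a RAD21 peak in either replicate, 5 of 6 centromeric and 6 of 10 telomeric, where 47.0% of all CTCF sites did. In wild-type limbs 12 of the 16 did, 5 centromeric and 7 telomeric, where 58.7% of all CTCF sites did. By replicate, RAD21 replicate 2 gave 11 of 16 (46.7% genome-wide) and replicate 1 gave 5 of 16 (13.5% genome-wide). The telomeric count rests on replicate 2: replicate 1 alone held 4 centromeric sites, C2, C4, C5 and C6, and a single telomeric site, T10.

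C7, T3, T5 and T9 carried CTCF and no RAD21 peak in any list. Their CTCF percentiles ran from 4.5 to 47.5 in replicate 1 and from 24.7 to 61.4 in replicate 2, a range that also held sites with RAD21, such as T7 (24.8 and 41.9) and C2 (30.0 and 44.1). C7 is also the centromeric site whose motif points away from HoxD, while T10, the telomeric site that points away, carried RAD21 in all 3 lists, with folds of 6.25 and 10.5 in TgN(38-40) limbs and 8.90 in wild-type limbs.

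RAD21 summits in wild-type limbs lay slightly past the motif. Measured from the motif centre in the direction in which the motif reads, the wild-type RAD21 summit was displaced forward at 10 of 11 sites, by a median of 14 bp (range -7 to 47), where 87.5% of CTCF sites with a motif were displaced forward genome-wide. In TgN(38-40) replicate 2 the summit was forward at 6 of 10 sites, with a median of 16.5 bp (range -85 to 62), against 64.0% genome-wide, and in replicate 1 at 2 of 5 sites, against 65.5%. The CTCF summits of TgN(38-40) limbs had medians of -2 bp in replicate 1, forward at 5 of 13 sites (53.1% genome-wide), and of -3 bp in replicate 2, forward at 3 of 14 sites (55.8%). For the telomeric minus-strand motifs, forward means nearer to HoxD.

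The next comparison set limbs without the native CS38-40 region against limbs with it. RAD21 was called at 14 of the 18 sites in any list. At 11 of them it was called in both TgN(38-40) and wild-type limbs, where 63.9% of the 21770 RAD21 sites of the genome were. It was called in TgN(38-40) limbs only at 1 site, C1 (4.54% genome-wide), and in wild-type limbs only at 2 sites, C8 and T6 (31.6% genome-wide). Without RAD21 replicate 2, 5 sites were shared, 8 were called in wild-type limbs only and 0 in TgN(38-40) limbs only. That setting leaves the 4102 peaks of replicate 1 against 20874 in wild-type limbs, so most wild-type peaks of the genome could not be shared. The genome-wide share was not computed for it. Counted over the 16 CTCF sites, 0 had RAD21 in TgN(38-40) limbs only (2.09% genome-wide) and 1, T6, in wild-type limbs only (13.8%). The 3 unshared sites did not lie next to the deleted region in the full lists, but with a -log10 q of at least 5 in every list T2, next to it, was also called in wild-type limbs only, as was C4. With at least 10, T1 was called in wild-type limbs only as well. A threshold does not mean the same in each list. The -log10 q was 4.00 at T2 and 20.7 at C2 in TgN(38-40) replicate 2, against 49.7 and 102 in wild-type limbs. Genome-wide shares were not computed at these thresholds. With the RAD21 lists cut to the length of the shortest, 0 sites were called in wild-type limbs only. In that setting 5 were called in both genotypes and 2 in TgN(38-40) limbs only.

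In the full lists the sites nearest to the deleted region had the same RAD21 call in both genotypes, although the calls at T1, T2 and T4 in TgN(38-40) limbs rest on RAD21 replicate 2 alone, without which all 3 were called in wild-type limbs only. T2, the nearest on the HoxD side, had no RAD21 peak in replicate 1 and a fold of 5.19 in replicate 2 of TgN(38-40) limbs, against 5.73 in wild-type limbs. T1 likewise had no peak in replicate 1 and a fold of 7.58 in replicate 2, against 6.59 in wild-type limbs. On the far side, T3 and T5 had no RAD21 peak in either genotype, and T4 had no peak in replicate 1 and a fold of 9.34 in replicate 2, against 5.36 in wild-type limbs. Folds of different lists are not on one scale, so the ranks were compared.

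Ranks were taken among the 13753 sites shared by TgN(38-40) replicate 2 and wild-type limbs. T2 stood at percentile 10.9 in TgN(38-40) replicate 2 and 47.3 in wild-type limbs, a difference of -36.4 points, and 4.64% of shared sites had a difference as low. T4 stood at 73.9 in TgN(38-40) replicate 2 and 41.5 in wild-type limbs, a difference of 32.4 points, and 6.96% of shared sites had one as high. T1 stood at 51.4 in TgN(38-40) replicate 2 and 61.0 in wild-type limbs. T1 and T2 thus ranked lower and T4 higher in TgN(38-40) replicate 2 than in the wild-type list. The cause of these differences was not tested.

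Differences of similar size were found far from the deleted region. T8 stood at 60.0 in TgN(38-40) replicate 2 and 26.8 in wild-type limbs (33.2 points, 6.51% as high), and C4, on the other side of the cluster, at 15.7 in TgN(38-40) replicate 2 and 53.3 in wild-type limbs (-37.7 points, 4.05% as low). C3 stood at 26.2 in TgN(38-40) replicate 2 and 2.35 in wild-type limbs, and C2 at 95.6 in TgN(38-40) replicate 2 and 82.2 in wild-type limbs. C5, C6, T7 and T10 differed by less than 10 points, from -8.78 points at C6 to -1.51 points at C5.

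Over all 13753 shared sites the percentile difference between TgN(38-40) replicate 2 and wild-type limbs had an SD of 21.4 points. C4 (1.76 SD), T2 (1.70 SD), T8 (1.55 SD), T4 (1.51 SD) and C3 (1.11 SD) lay beyond 1 SD and the other 6 sites within it. The spread between the TgN(38-40) replicates can be read only among the 3847 sites found in all 3 RAD21 lists, ranked anew among themselves, where replicate 2 minus replicate 1 had an SD of 31.7 points and replicate 2 minus wild type an SD of 25.01 points. Only C2, C4, C5, C6 and T10 are in that set. C2 stood there at 51.5 and 86.2 in replicates 1 and 2 of TgN(38-40) limbs, against 50.9 in wild-type limbs, and C4 at 31.0 and 2.01 in TgN(38-40) limbs, against 12.6 in wild-type limbs. C6 stood at 80.8 and 30.2 in TgN(38-40) limbs, against 39.2 in wild-type limbs. At each of these 3 sites the TgN(38-40) replicates differed by 29.0 points or more, and at C4 and C6 the wild-type value lay between them. T2, T4 and T8 had no peak in RAD21 replicate 1, so their replicate spread could not be read, and no test was made of 2 lists against 1. Over the 11 shared sites the folds in TgN(38-40) replicate 2 and wild-type limbs had a Spearman rho of 0.71, and over all 13753 shared sites 0.72.

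**Figure D3:**
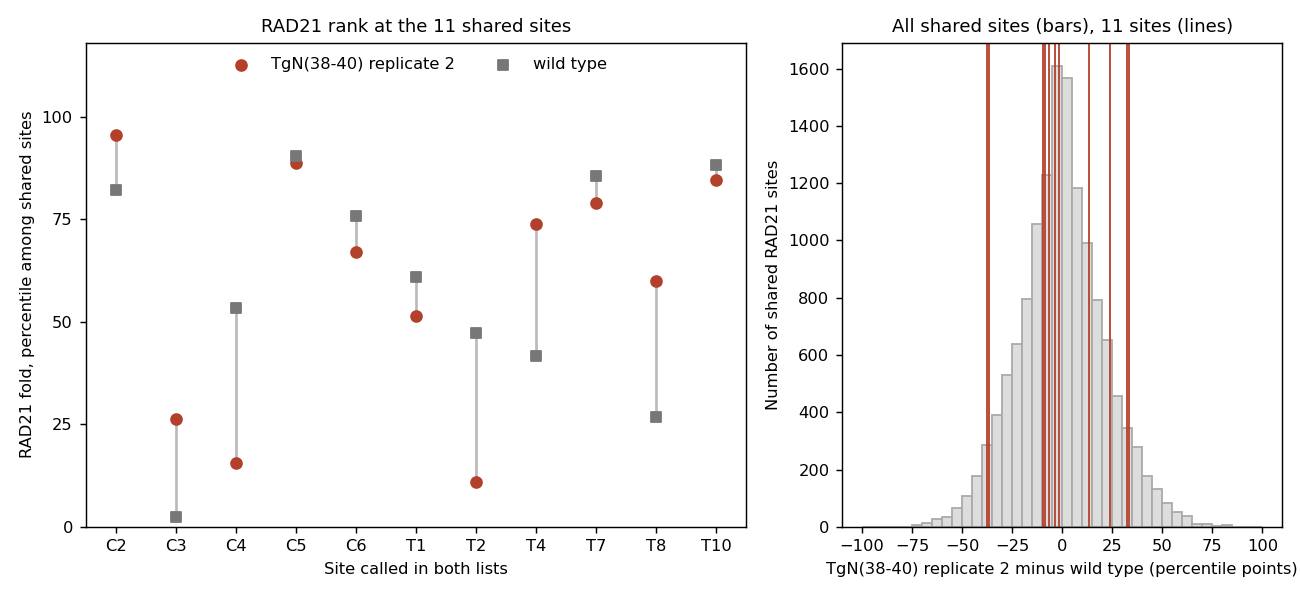
Left, percentile of the RAD21 fold among sites shared by TgN(38-40) replicate 2 (circles) and wild-type limbs (squares) at the 11 shared sites. Right, TgN(38-40) replicate 2 minus wild type in percentile points for all 13753 shared sites as bars and for the 11 sites as lines, which spread from -37.7 to 33.2 on both sides of 0.

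Whether a wild-type peak was found again in TgN(38-40) limbs went with its strength across the genome, where 66.9% of wild-type RAD21 peaks were called in either TgN(38-40) replicate. T6, called in wild-type limbs only, had a wild-type fold of 4.34, in decile 5 of that list by fold, of which 70.8% was found again, and T8 of the same decile was found again. C8, also called in wild-type limbs only, had a fold of 2.84, in decile 2, of which 22.5% was found again, and C3 of that decile was found again. The 9 sites in higher deciles were all found again: C4, T2 and T4 in decile 7 (93.8% found again genome-wide), T1 in decile 8 (98.3%), C2 and C6 in decile 9 (99.9%), and C5, T7 and T10 in decile 10 (99.9%). The lists also start at different levels, with a lowest -log10 q of 1.34 and 1.38 in TgN(38-40) replicates 1 and 2 and 2.15 in wild-type limbs.

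At the genes themselves, CTCF was not called near any start. No start of the 5 genes had a CTCF peak within 2000 bp, where 23.5% of the 21938 protein-coding genes had one. A RAD21 peak lay within that distance of 1 of the 5 genes in TgN(38-40) limbs (11.1% genome-wide) and of 1 in wild-type limbs (17.5% genome-wide), and these were different genes.

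Atf2 (ENSMUSG00000027104, chr2:73816509-73892639, minus strand) encodes a basic leucine zipper transcription factor of the ATF/CREB family and marks the far end of the centromeric landscape. C1, 19 bp from its start, had a RAD21 fold of 5.61 in TgN(38-40) replicate 2 (percentile 21.8, -log10 q 4.64), no peak in replicate 1 and no peak in wild-type limbs. It had no CTCF peak and no CTCF motif. On the custom genome of the transgenic line this peak was not called in the same replicate. The nearest CTCF peak, at C2, lay 32453 bp away. This and the CTCF distances below run from the edge of the peak to the nearest annotated start of the gene.

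Atp5g3 (ENSMUSG00000018770, chr2:73908447-73911326, minus strand) encodes the membrane-embedded ring subunit c of mitochondrial ATP synthase. Its nearest CTCF peak lay 13766 bp away, the shortest such distance among the 5 genes, and was again at C2. C2 carried RAD21 in every list, with folds of 6.20 and 12.52 in replicates 1 and 2 of TgN(38-40) limbs and 8.24 in wild-type limbs. It was the highest ranked of the 18 sites in TgN(38-40) replicate 2 (percentile 95.8), although its CTCF peaks were of less than median rank.

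Lnpk (ENSMUSG00000009207, chr2:74520291-74579435, minus strand) encodes lunapark, a protein that shapes the tubular endoplasmic reticulum. C8 overlapped an annotated start of Lnpk, with its summit 85 bp from the nearest of the 12 annotated starts. It had no RAD21 peak in TgN(38-40) limbs and a fold of 2.84 in wild-type limbs (percentile 14.8, -log10 q 9.67). Here too CTCF peak and motif were missing. C1 and C8 were the RAD21 sites without CTCF, 2 of 14, where 20.0% of all RAD21 sites had none. The CTCF lists used came from TgN(38-40) limbs alone. CTCF at C8 in wild-type limbs, where its RAD21 peak was called, was therefore not read. No CTCF site lay in the landscape nearer to Lnpk than the cluster's own, whose first peak was 75927 bp from the nearest Lnpk start.

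Both starts are rich in CpG, and their RefSeq (GRCm38.p6) promoter windows of 300 bases around the start are given with each CG in capitals because they carry the RAD21 peaks without CTCF.
Atf2 promoter, chr2:73892590-73892889, minus strand: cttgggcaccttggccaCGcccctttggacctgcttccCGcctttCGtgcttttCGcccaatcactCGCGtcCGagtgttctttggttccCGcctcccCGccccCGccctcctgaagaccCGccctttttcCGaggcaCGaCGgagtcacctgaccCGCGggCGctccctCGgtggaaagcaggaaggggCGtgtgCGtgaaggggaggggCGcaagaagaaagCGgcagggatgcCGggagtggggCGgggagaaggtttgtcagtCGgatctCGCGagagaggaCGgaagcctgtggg
Lnpk promoter, chr2:74578899-74579198, minus strand: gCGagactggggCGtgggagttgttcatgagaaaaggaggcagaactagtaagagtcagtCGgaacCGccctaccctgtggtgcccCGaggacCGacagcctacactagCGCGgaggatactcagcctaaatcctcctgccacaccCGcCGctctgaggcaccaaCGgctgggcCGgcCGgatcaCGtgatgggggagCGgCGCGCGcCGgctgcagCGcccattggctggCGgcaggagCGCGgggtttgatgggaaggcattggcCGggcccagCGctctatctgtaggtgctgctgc
The Atf2 window held 28 CG and the Lnpk window 25, against a median of 7 over 32851 mouse promoter windows, of which 87.1% and 83.1% held as few or fewer. The other three genes, without a peak at their start, were also above that median, with 21 in Atp5g3, 19 in Mtx2 and 44 in Hnrnpa3. Searched on both strands with the CTCF motif model, only the Hnrnpa3 window reached the score of 4.25 used at CTCF summits, with 5.35, as did 20.5% of all promoter windows. These windows are longer than those the score was set on, and no CTCF peak was called at Hnrnpa3.

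Mtx2 (ENSMUSG00000027099, chr2:74825803-74878431, plus strand) encodes metaxin 2, which takes part in protein import at the mitochondrial outer membrane. The gene held no site. Its nearest CTCF peak, at T1, began 95377 bp from the nearest of its 3 annotated starts, the longest such distance among the 5 genes. That start lies inside the gene and not at its first base. Hnrnpa3 (ENSMUSG00000059005, chr2:75659261-75669407, plus strand) encodes an RNA-binding protein of the hnRNP A/B family and marks the far end of the telomeric landscape. Its nearest CTCF peak was that of T10, 53157 bp away.

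The spacing of CTCF sites was uneven, with long empty stretches next to the cluster. Neighbouring autosomal CTCF sites were a median of 32.5 kb apart (n = 28203). C7 and the first cluster site were 349.7 kb apart, a stretch that contains Lnpk and that 4.21% of autosomal distances reached. The last cluster site and T1 were 248.6 kb apart, a stretch that contains Mtx2 (6.81%). T5 and T6 were 245.4 kb apart (6.96%), and C5 and C6 233.6 kb apart (7.39%). At the other extreme T7 and T8 were 1.6 kb apart, T9 and T10 2.6 kb, C6 and C7 5.5 kb, and T4 and T5 6.0 kb.

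The stretch removed by del(CS38-40) lies between T2 and T3. T2 was 78.5 kb and T1 169.3 kb from its edge on the HoxD side, with the last cluster site at 417.9 kb. T3 was 54.6 kb, T4 158.6 kb and T5 164.6 kb from its other edge. On the chromosome without the region, T2 and T3 became neighbours at 133.1 kb, after subtraction of the 20 kb that were deleted, a distance reached by 15.2% of autosomal neighbours. With the region, the distances were 82.8 kb from T2 to the first CS38-40 site (24.9%) and 55.8 kb from the last CS38-40 site to T3 (35.0%). The CS38-40 summits used here came from the TgN(38-40) lists, whose reads derive from the transgene.

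**Figure D4:**
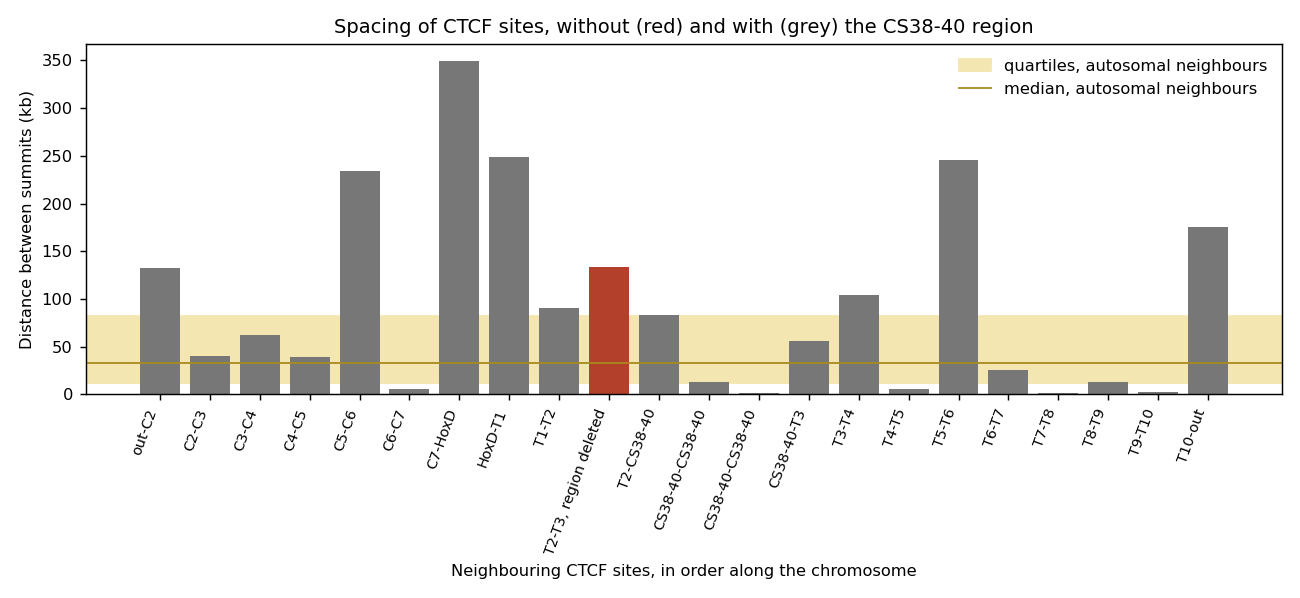
Distance in kb between summits of neighbouring CTCF sites in order along the chromosome, grey with the CS38-40 region in place and red for T2 to T3 without it, with the median (line) and quartiles (band) of autosomal neighbours and "out" for the next site beyond either landscape. The red bar, 133.1 kb, is above the band and shorter than the stretches on both sides of HoxD.

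T2 and T3, the neighbours made by the deletion, both had minus-strand motifs (that of T2 in the 100 bp window), as did T1, T4 and T5. They therefore stayed in tandem across the deleted stretch, all pointing towards HoxD.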

How the data were processed

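The deposited peak lists were made by the authors from ChIPmentation reads (wild-type RAD21: ChIP-seq). Per the labels and the study's methods, reads were trimmed with cutadapt 1.16, mapped with Bowtie2 2.3.4.1 and peaks were called per replicate with MACS2 2.1.1.20160309; the control given to MACS2 is not given in the sources used here. Each deposited row holds a peak, its fold enrichment (a ratio), the −log10 of its p- and q-value, a score equal to 10 times the −log10 q as a whole number, and the summit offset. All deposited peaks had a q-value under 0.05. Reads mapped to the custom genome were kept when they fitted several places, per the authors; that genome served only as an alternative.

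Peaks overlapping by at least 1 bp were merged, and a CTCF site is a site with a peak in either replicate. The motif model was learned from 2000 peaks. A motif was called where its best score within 50 bp of any CTCF summit of the site exceeded that of 95% of flanks 500 bp away. Each flank was a single window beside the summit with the lowest q-value. Sites whose replicates had separate summits were thus searched over more sequence than a flank. Genes came from GENCODE M21, and the limits of the deleted stretch from the study's text. Python 3.11.15, numpy 2.4.6, pysam 0.24.0 and samtools 1.23.1 were used, and the steps were tested on simulated data. Without read counts no test was made, and the precision of a fold is unknown. Sites were named by a rule: those within 5000 bp of a gene, the 5 strongest CTCF sites per side, the 3 nearest to the deleted stretch on each flank, those unshared between genotypes, and the first beside the cluster. The genes, regions and lists were chosen with earlier results of these data known. Input libraries were not used.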

Additional observations from a re-analysis of the deposited data

How the results depend on the processing

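Of 96 values recomputed under alternatives, 68 stayed and 28 moved, meaning over 1.5 times for a count and over 17.0 bp, the spread between replicates, for the distance. Some of these outcomes were fixed in advance. The RAD21 calls by genotype do not use the CTCF lists, so leaving out a CTCF replicate could not move them. The 17.0 bp is the SD of the 2 distances that leave out a CTCF replicate. The main distance equalled 1 of them, so the other had to count as moved. With a −log10 q of at least 10, CTCF sites were 3 (centromeric) and 6 (telomeric), and those with RAD21 2 and 3. Motifs towards HoxD were 3 and 4, and 1 pointed away. RAD21 sites were 0 in TgN(38-40) limbs only, 7 in both genotypes and 4 in wild-type limbs only. At this threshold T3 was lost, so that T2 and T4 became neighbours at 237121 bp, after subtraction of the 20 kb that were deleted. With at least 5, RAD21 sites were 0 in TgN(38-40) limbs only and 4 in wild-type limbs only (C4, C8, T2 and T6), and 1 motif pointed away. With the RAD21 lists shortened to the length of the shortest, telomeric CTCF sites with RAD21 were 3, and RAD21 sites were 2 in TgN(38-40) limbs only, 5 in both and 0 in wild-type limbs only. With the wild-type list at the length of replicate 2 these were 2 in TgN(38-40) limbs only and 1 in wild-type limbs only, and with a reciprocal overlap of 50% 2 were in TgN(38-40) limbs only. The cause was not tested beyond the shorter lists that these settings make.

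Leaving out each replicate, centromeric CTCF sites with RAD21 ranged from 4 to 5 and telomeric ones from 1 to 6, RAD21 sites in TgN(38-40) limbs only from 0 to 1, in both from 5 to 11 and in wild-type limbs only from 2 to 8 (the values farthest from the main counts being those without RAD21 replicate 2), motifs away from 1 to 2, towards HoxD from 3 to 5 (centromeric) and from 6 to 7 (telomeric), and the distance from 133125 to 133149 bp. On the custom genome the CTCF counts were again 6 and 10. No paired analysis was possible because no result comes from a test and the wild-type list has no replicate number.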
